A study of Mus musculus with 15 samples.

Results

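The genes of the colony-stimulating factors were followed in macrophages with and without STAT5. The 10 genes were chosen by name: the ligands Csf1, Csf2 and Csf3, which encode M-CSF, GM-CSF and G-CSF, the receptor chains Csf2ra, Csf2rb, Csf2rb2, Il3ra, Csf1r and Csf3r, and the kinase gene Jak2. All 10 were found among the 55385 genes of the count table, and 8 of them passed the low-count filter, a CPM (counts scaled to the size of the library) over 1 in at least 2 libraries, which 13005 genes passed. Csf2 and Csf3 did not pass it. The macrophages were grown from the bone marrow of female BALB/c mice that were 6 weeks old, and all mice carried floxed Stat5 alleles. STAT5fl/fl mice (2 mice, numbers 112 and 113) kept both genes, and STAT5cKO mice (3 mice, numbers 114, 115 and 116) also carried the Csf1r-iCre transgene, in which a Csf1r promoter drives the recombinase. Bone marrow-derived macrophages (BMDMs) of each mouse were left in DMEM as the control, stimulated with 20 ng/mL recombinant mouse GM-CSF (rmGM-CSF) or stimulated with 4T1 CM, medium conditioned by the 4T1 mouse mammary tumor line, for 2 h, giving 15 libraries in 6 groups. A STAT5fl/fl replicate was removed by the study's quality control and is not analysed here. Since the STAT5fl/fl mice lacked the transgene, the loss of STAT5 and the presence of Csf1r-iCre cannot be told apart, and the transgene is driven by the promoter of a receptor gene described here.

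M-CSF, GM-CSF and G-CSF are growth factors of the myeloid lineage. The receptors of GM-CSF, IL-3 and IL-5 pair an alpha chain that binds its own ligand with the common beta chain, which carries the kinase JAK2 into the complex, and ligand binding leads JAK2 to phosphorylate STAT5. Mice have a further beta chain, encoded by Csf2rb2, which serves the IL-3 receptor alone. The M-CSF receptor is itself a tyrosine kinase and marks the macrophage lineage, whereas the G-CSF receptor is best known from neutrophils.

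Total counts per library ranged from 16016736 to 22883108. Stat5a had 637 to 918 counts in STAT5fl/fl libraries and 0 to 3 in STAT5cKO libraries, and Stat5b had 977 to 1654 and 0 to 4, respectively, so that the targeted genes matched the genotype labels in 15 of 15 libraries. All 8 macrophage markers on the list, Adgre1 and Cd68 among them, passed the low-count filter. Their summed level was 20792 to 26200.0 normalised CPM in STAT5fl/fl libraries and 27457 to 42890.5 in STAT5cKO libraries, most of it Lyz2. Each marker of T cells and B cells was at 4 counts or fewer in every library. Of 6 dendritic cell markers Zbtb46 passed the filter, and the list summed to 1.31 to 4.86 normalised CPM, and Zbtb46 was higher with rmGM-CSF than with DMEM in both genotypes. Of 6 epithelial markers Cdh1 passed the filter, with at most 84 counts in a library. Epcam, Krt8, Krt18, Krt14 and Krt19 reached at most 4, 1, 2, 0 and 1 counts. In sum this list moved with treatment and genotype. It summed to at most 0.136 normalised CPM with DMEM in either genotype, to 1.18 to 1.43 in STAT5fl/fl and at most 0.049 in STAT5cKO libraries with rmGM-CSF, and to 3.16 to 4.38 and 1.23 to 2.17 with 4T1 CM. Cdh1 was called lower in STAT5cKO BMDMs with rmGM-CSF, and the part of these markers in the values of the 10 genes was not tested. These were bulk samples, in which fewer cells that express a gene and less RNA per cell cannot be told apart.

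The sequences of the beta chain genes bear on how their counts can be read, since Csf2rb (ENSMUSG00000071713, chr15:78325752-78353847 of GRCm38, + strand) and Csf2rb2 (ENSMUSG00000071714, chr15:78282507-78305721, - strand) lie 20030 bases apart, point in opposite directions and are near copies of each other. Their coding sequences, 2688 and 2634 bases long, were identical at 95.2% of 2628 aligned positions, and the longest identical stretch was 242 bases. Of the 50-base windows of the Csf2rb transcript, 18.4% also occurred in a Csf2rb2 transcript, and 19.0% of the 50-base windows of Csf2rb2 occurred in Csf2rb. Of the 100-base windows, 6.96% and 7.20% were shared. The authors counted fragments with a mapping quality of at least 10, so that fragments from shared stretches could be lost from both genes, and the exons of each gene share a further 62 bp with a microRNA gene on the same strand (Mir7676-2 and Mir7676-1). The 60-base window in which the coding sequences differed most is printed for each gene, with the 13 differing bases in capitals, as an example of the stretches that tell the chains apart. It is base 304 to 363 of the Csf2rb coding sequence (chr15:78338893-78338952, + strand) and base 307 to 366 of that of Csf2rb2 (chr15:78294379-78294438, - strand), and each lies in 1 exon.
Csf2rb: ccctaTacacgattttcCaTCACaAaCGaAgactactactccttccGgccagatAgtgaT
Csf2rb2: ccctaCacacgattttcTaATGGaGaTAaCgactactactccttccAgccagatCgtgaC

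RefSeq promoter sequences of build GRCm38.p6 were at hand for 7 of the 10 genes (Csf2ra, Csf2rb2, Il3ra, Csf3r, Csf1, Csf2 and Jak2). The 250 bases before the start were searched on both strands for TTCNNNGAA and TTCNNNNGAA, the letters of the sites STAT proteins are known to bind, and for GAGGAA, the core letters known from sites of the macrophage factor PU.1. TTCNNNGAA occurred in 1 of the 7, Csf2rb2, from 15 to 7 bases before the start, and in 7.02% of all 32851 promoters of that length. TTCNNNNGAA occurred in 0 of the 7 and in 5.85% of all promoters. GAGGAA occurred in Csf2ra, at 2 adjoining places, in Csf2rb2 and in Csf3r, 3 of the 7, and in 23.3% of all promoters, and none of these matches overlapped another. A match is a description of letters and not a bound site, and windows without one say nothing of the factors. The windows of Csf2rb2, Csf1 and Jak2 are shown because these are the genes with a promoter at hand that rose with both treatments in STAT5fl/fl BMDMs, with matches in capitals. They lie at chr15:78305722-78305971 (- strand, 56.4% G and C), chr3:107760470-107760719 (- strand, 56.4%) and chr19:29251553-29251802 (+ strand, 80.8%).
Csf2rb2: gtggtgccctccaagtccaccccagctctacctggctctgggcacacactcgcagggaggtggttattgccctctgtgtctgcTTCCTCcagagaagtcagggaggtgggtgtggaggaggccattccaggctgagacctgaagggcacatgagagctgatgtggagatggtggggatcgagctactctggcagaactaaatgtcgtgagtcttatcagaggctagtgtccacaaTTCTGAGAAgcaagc
Csf1: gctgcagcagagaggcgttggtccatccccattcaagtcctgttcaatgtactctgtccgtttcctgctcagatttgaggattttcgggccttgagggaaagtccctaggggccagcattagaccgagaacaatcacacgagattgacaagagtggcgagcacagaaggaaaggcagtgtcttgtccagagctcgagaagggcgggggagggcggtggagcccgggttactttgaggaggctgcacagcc
Jak2: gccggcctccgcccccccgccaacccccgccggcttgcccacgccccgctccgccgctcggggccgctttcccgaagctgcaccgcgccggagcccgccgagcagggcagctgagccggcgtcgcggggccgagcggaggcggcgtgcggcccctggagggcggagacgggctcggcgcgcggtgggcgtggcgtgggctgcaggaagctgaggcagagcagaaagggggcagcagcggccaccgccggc

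The 8 genes that passed the filter spanned a wide range of levels. Compared per transcript length as normalised RPKM (reads per kilobase of exon, scaled for depth), the mean over 15 libraries was 702 for Csf1r, which ranked 37 among the 13005 genes. Csf2rb at 147 and Csf2rb2 at 141 followed, ahead of Csf2ra at 85.9 and Csf3r at 57.7. This order of the means over all libraries did not hold in each group: the RPKM of Csf2rb was below that of Csf2rb2 in every library with DMEM and in every STAT5cKO library with rmGM-CSF, and below that of Csf2ra in 1 DMEM library, that of mouse 114. Jak2 stood at 28.2, Il3ra at 10.1 and Csf1 at 4.73. The IL-3 receptor alpha chain was thus listed at a lower RPKM than either beta chain in every library, between 7.46 and 15.4 against at least 76.8 for Csf2rb and 98.6 for Csf2rb2.

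**Figure D1:**
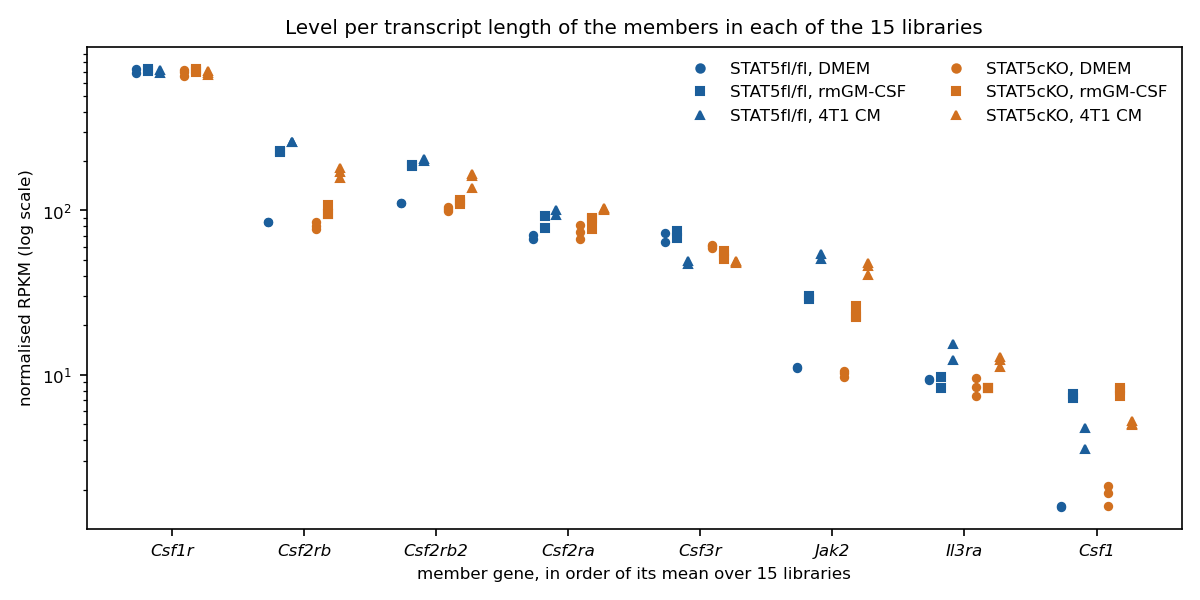
Normalised RPKM (log scale) of the 8 genes in each of the 15 libraries, with STAT5fl/fl in blue, STAT5cKO in orange and the treatments as symbols. Csf1r stayed near 702 in every group, whereas Csf2rb, Csf2rb2, Jak2 and Csf1 spread by treatment.

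Whether the loss of STAT5 changed these genes was asked within each treatment, with all genes fitted together and calls made at an adjusted p-value under 0.01 (edgeR quasi-likelihood test, Benjamini-Hochberg). With DMEM 0 of the 8 genes differed between the genotypes, beside 2.35% of all genes (0.923% higher and 1.43% lower), although 1 had an unadjusted p-value under 0.05 (Csf3r) and neither DESeq2 nor the likelihood ratio test called any. With rmGM-CSF 4 of 8 were lower in STAT5cKO BMDMs (Csf2rb, Csf2rb2, Csf3r and Jak2) and 0 were higher, beside 9.93% of all genes called in either direction, 3.78% higher and 6.16% lower. With 4T1 CM 2 of 8 were lower (Csf2rb and Csf2rb2) and 0 were higher, beside 7.44% of all genes in either direction, 4.01% higher and 3.43% lower. For the 8 genes the median log2 difference was -0.09 in the control medium, -0.21 under rmGM-CSF and -0.11 under 4T1 CM, where the median of all genes was within 0.01 of 0.

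**Figure D2:**
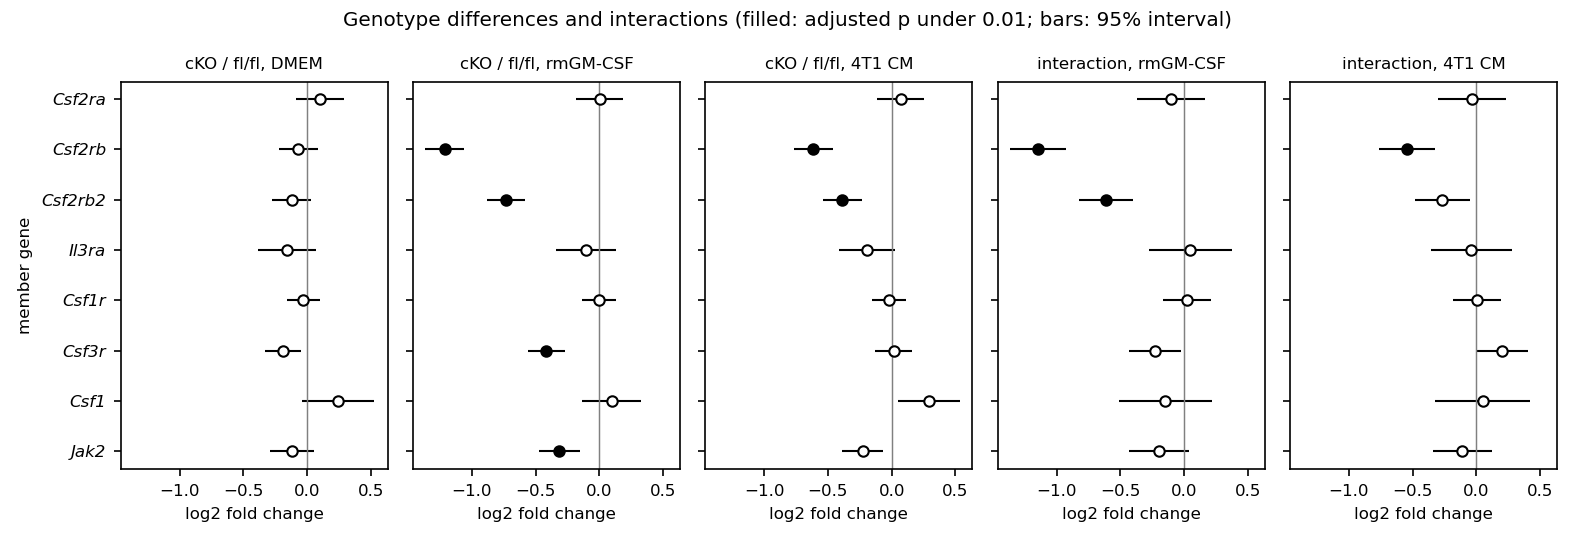
Log2 fold change of STAT5cKO over STAT5fl/fl for each gene with each treatment, and the interactions (response of STAT5cKO minus response of STAT5fl/fl, log2), with 95% intervals. Filled points had an adjusted p-value under 0.01 and lie below 0 in each panel that has any, and Csf2rb with rmGM-CSF, at -1.21, lies farthest from 0.

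More of the 8 genes responded to 4T1 CM than differed between the genotypes with any treatment. For rmGM-CSF this did not hold, with 4 called between the genotypes and 4 and 3 in the responses. With rmGM-CSF against DMEM, 4 of 8 genes were higher in STAT5fl/fl BMDMs (Csf1, Csf2rb, Jak2 and Csf2rb2) and 0 were lower, beside 28.7% of all genes in either direction, 16% higher and 12.7% lower. In STAT5cKO BMDMs 3 of 8 were higher (Csf1, Jak2 and Csf2rb) and 0 lower, beside 23.5% in either direction, 13.4% higher and 10% lower. With 4T1 CM against DMEM, 6 of 8 were higher and 1 lower in either genotype, Csf1r being the gene that was not called, beside 37.2% of all genes in STAT5fl/fl (19.1% higher and 18% lower) and 37.2% in STAT5cKO BMDMs (19% higher and 18.2% lower). With 4T1 CM against rmGM-CSF, 2 were higher and 2 lower in STAT5fl/fl BMDMs beside 30.9% of all genes (14% higher and 17% lower), and 4 were higher and 1 lower in STAT5cKO BMDMs beside 34.1% (16.6% higher and 17.5% lower). A model without 1 mouse has 1 library fewer in each group of its genotype, and the part of a particular mouse was not tested. In such models the calls over all genes fell in number. Those with rmGM-CSF against DMEM fell from 3730 to 1960 without mouse 112 and to 1763 without mouse 113 in STAT5fl/fl, and from 3052 to 1983 without mouse 114 and to 1827 without mouse 115 in STAT5cKO BMDMs. In STAT5fl/fl BMDMs those with 4T1 CM against DMEM fell from 4835 to 2668 without mouse 113, and those with 4T1 CM against rmGM-CSF from 4023 to 2642 without mouse 112 and to 1721 without mouse 113. The median log2 response of the 8 genes to rmGM-CSF was 0.53 in STAT5fl/fl and 0.17 in STAT5cKO BMDMs, and to 4T1 CM it was 0.71 and 0.56, respectively, with the median of all genes within 0.02 of 0. Both treatments were compared with the same DMEM libraries, and their values are therefore given side by side without a measure of agreement.

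**Figure D3:**
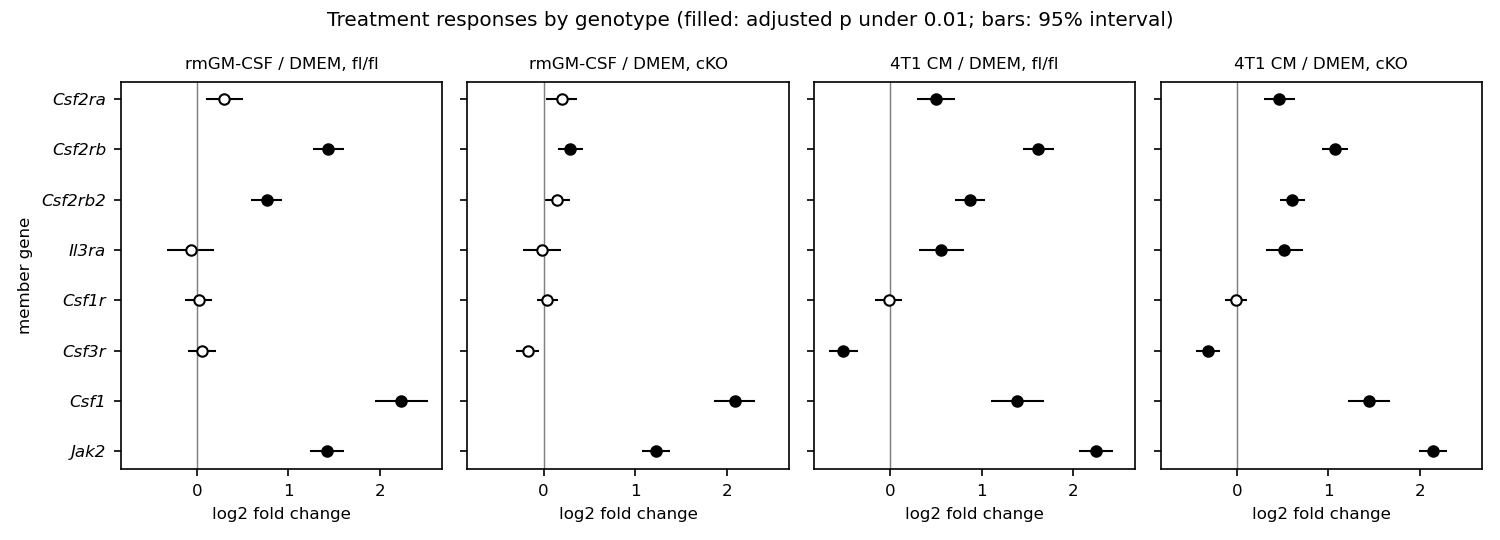
Log2 fold change of each gene with rmGM-CSF or 4T1 CM over DMEM, by genotype, with 95% intervals and filled points for an adjusted p-value under 0.01. Csf2rb moved from 1.44 in STAT5fl/fl to 0.29 in STAT5cKO BMDMs with rmGM-CSF, and Csf1 and Jak2 stayed above 1 in all 4 panels.

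The common beta chain gene Csf2rb showed the largest genotype difference of the 8 genes with rmGM-CSF and with 4T1 CM. With DMEM it had 617 and 617 normalised CPM in the STAT5fl/fl libraries and 559, 584 and 623 in the STAT5cKO libraries. With rmGM-CSF it had 1659 and 1679 normalised CPM in STAT5fl/fl and 689, 688 and 781 in STAT5cKO libraries. The genotypes overlapped with DMEM, whereas with rmGM-CSF the lowest STAT5fl/fl library lay above the highest STAT5cKO library by a wide margin. With 4T1 CM the values were 1896 and 1898 in STAT5fl/fl and 1250.3, 1149 and 1318 in STAT5cKO libraries. Csf2rb was 2.32-fold lower in STAT5cKO BMDMs with rmGM-CSF (log2 difference -1.21 ± 0.07, SE, adjusted p = 2.03e-09). With 4T1 CM it was 1.53-fold lower (log2 difference -0.61 ± 0.07, SE, adjusted p = 1.92e-05), and with DMEM the log2 difference was -0.07 with a 95% interval from -0.22 to 0.09. Whether the gap differed between the stimuli was not tested.

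The response of Csf2rb depended on the genotype. It rose 2.71-fold with rmGM-CSF in STAT5fl/fl BMDMs (log2 1.44 ± 0.08, SE, adjusted p = 2.36e-10), by 2.69-fold and 2.72-fold in the individual mice. In STAT5cKO BMDMs it rose 1.22-fold (log2 0.29 ± 0.07, SE, adjusted p = 0.00227), by 1.18-fold to 1.25-fold in the 3 mice, a call that was lost without mouse 114 (adjusted p = 0.0194). The interaction, the STAT5cKO response minus the STAT5fl/fl response, was -1.15 ± 0.10 (log2, SE) for rmGM-CSF (adjusted p = 1.73e-06), and 2 of 8 genes had an interaction with rmGM-CSF, both below 0, beside 3.16% of all genes in either direction, 0.884% above and 2.28% below 0. With 4T1 CM Csf2rb rose 3.07-fold in STAT5fl/fl and 2.11-fold in STAT5cKO BMDMs (adjusted p = 4.37e-11 and 3.89e-10). That interaction was -0.55 ± 0.10 (log2, SE, adjusted p = 0.00632), the 1 of 8 genes called beside 1.31% of all genes in either direction, 0.761% above and 0.546% below 0, and it was not called without mouse 112, 113, 114 or 115 (adjusted p = 0.0849, 0.149, 0.0151 and 0.0275) nor with both beta chain genes counted as 1 gene (adjusted p = 0.0197), a setting chosen after seeing the data. The order of the group means was STAT5fl/fl with 4T1 CM, STAT5fl/fl with rmGM-CSF, STAT5cKO with 4T1 CM, STAT5cKO with rmGM-CSF and then DMEM, and only the STAT5fl/fl and STAT5cKO groups with DMEM overlapped as neighbours. In STAT5cKO BMDMs 4T1 CM gave 1.72-fold more Csf2rb than rmGM-CSF (adjusted p = 3.32e-08), while in STAT5fl/fl BMDMs the fold was 1.14 (adjusted p = 0.0722, 95% interval of the log2 difference 0.02 to 0.35).

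**Figure D4:**
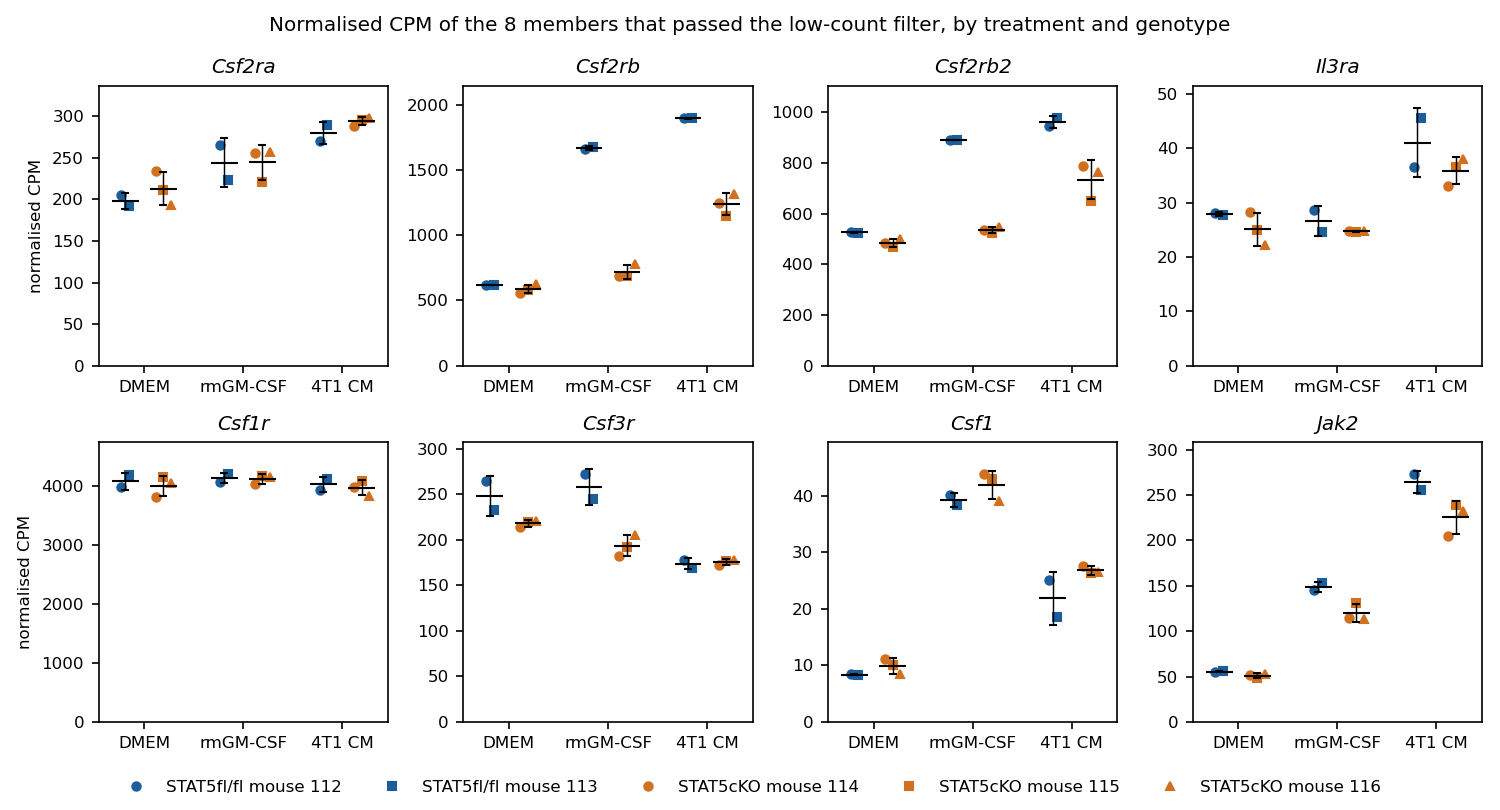
Normalised CPM of the 8 genes in each library, with means and SD per group (n = 2 STAT5fl/fl and n = 3 STAT5cKO mice) and a symbol per mouse. Csf2rb and Csf2rb2 of the 2 STAT5fl/fl libraries lie above the 3 STAT5cKO libraries with rmGM-CSF and 4T1 CM, whereas Csf1r is level in all 6 groups.

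Csf2rb2, the beta chain of the IL-3 receptor, was lower in STAT5cKO BMDMs with the same treatments as Csf2rb, by smaller folds. It had 526 and 525 normalised CPM in STAT5fl/fl libraries with DMEM, and 483, 468 and 499.7 in STAT5cKO libraries. Under rmGM-CSF the values were 889 and 891 in STAT5fl/fl and 537, 523 and 547 in STAT5cKO libraries. Under 4T1 CM the values were 944 and 976 in STAT5fl/fl and 789, 648 and 765 in STAT5cKO libraries. The genotypes did not overlap with any of the treatments, although with DMEM the difference was small and was not called (log2 difference -0.12, 95% interval -0.27 to 0.03). Csf2rb2 was 1.66-fold lower in STAT5cKO BMDMs with rmGM-CSF (log2 difference -0.73 ± 0.07, SE, adjusted p = 9.55e-07) and 1.31-fold lower with 4T1 CM (adjusted p = 0.00129). The latter was not called in a model of the 4T1 CM libraries alone (adjusted p = 0.0352) or without mouse 112 or 113 (adjusted p = 0.0177 and 0.047). It rose 1.69-fold with rmGM-CSF in STAT5fl/fl BMDMs (adjusted p = 6.85e-07), and the fold was 1.11 in STAT5cKO BMDMs (adjusted p = 0.0881). The interaction with rmGM-CSF was -0.61 ± 0.10 (log2, SE, adjusted p = 0.00101), and it was not called without mouse 112 or 113 (adjusted p = 0.0308 and 0.0417). With 4T1 CM Csf2rb2 rose 1.83-fold and 1.52-fold in STAT5fl/fl and STAT5cKO BMDMs (adjusted p = 7.91e-08 and 5.28e-07), and the interaction was -0.27 (adjusted p = 0.218).

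The balance of the beta chain counts shifted with the treatments. The ratio of Csf2rb to Csf2rb2 counts within a library was 1.17 ± 0.000472 (SD, n = 2) in STAT5fl/fl and 1.22 ± 0.0520 (SD, n = 3) in STAT5cKO libraries with DMEM. With rmGM-CSF it was 1.88 ± 0.0134 in STAT5fl/fl and 1.34 ± 0.0754 in STAT5cKO libraries, and with 4T1 CM it was 1.98 ± 0.0461 and 1.69 ± 0.0977, respectively. The ratio does not depend on the scaling between libraries, and it was higher in the STAT5fl/fl libraries than in any STAT5cKO library with rmGM-CSF and with 4T1 CM, but not with DMEM. With the counts of both genes added up as 1 gene, the sum was lower in STAT5cKO BMDMs by a log2 difference of -1.03 with rmGM-CSF (adjusted p = 9.87e-09) and of -0.53 with 4T1 CM (adjusted p = 5.73e-05). This sum does not depend on which copy a fragment was assigned to.

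**Figure D5:**
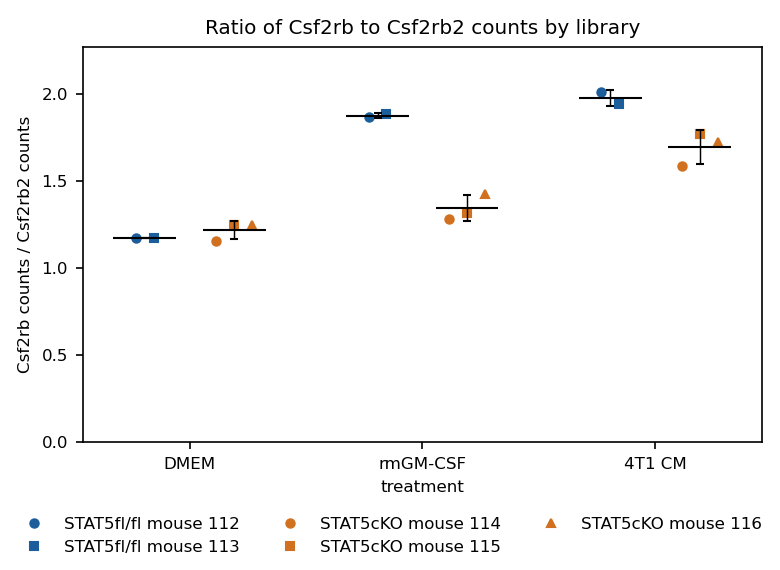
Ratio of Csf2rb to Csf2rb2 counts in each library by treatment, with the mean and SD of each group and a symbol per mouse. The ratio was near 1.2 in both genotypes with DMEM and reached 1.88 and 1.98 in STAT5fl/fl libraries with rmGM-CSF and 4T1 CM.

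Mast cells and basophils also use these receptors, and the marker list for them moved with the genotype. Its summed level was 15.9 to 20.1 normalised CPM in STAT5fl/fl and 4.86 to 7.57 in STAT5cKO libraries with DMEM, 19.9 to 23.8 and 3.96 to 6.27 with rmGM-CSF, and 6.91 to 8.46 and 1.65 to 4.59 with 4T1 CM. Of its 6 markers only Kit passed the filter, and it was lower in STAT5cKO BMDMs with each treatment. The defining markers Cpa3 and Ms4a2 were at 0 counts in all 15 libraries, and Fcer1a, Mcpt8 and Gata2 reached 1, 2 and 11 counts. The part of this list in the values of the receptor genes was not tested.

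The alpha chain genes rose with 4T1 CM in both genotypes and showed no called genotype difference. Csf2ra (ENSMUSG00000059326, chr19:61223957-61228429, - strand), the GM-CSF-binding chain, had 205 and 192 normalised CPM in STAT5fl/fl and 234, 211 and 194 in STAT5cKO libraries with DMEM. The 4T1 CM libraries had 271 and 289.5 in STAT5fl/fl and 288, 295 and 298 in STAT5cKO libraries, above all DMEM libraries. Csf2ra rose 1.41-fold in STAT5fl/fl and 1.38-fold in STAT5cKO BMDMs with 4T1 CM (adjusted p = 0.000398 and 0.000102), the former call being lost without mouse 113 (adjusted p = 0.0313). With rmGM-CSF the libraries ranged from 220.4 to 265 normalised CPM, and the folds over DMEM were 1.23 (adjusted p = 0.0206) and 1.15 (adjusted p = 0.0631). The first of these passed the threshold in DESeq2 (adjusted p = 0.00997) and without the low-count filter (adjusted p = 0.00172). With 4T1 CM over rmGM-CSF the fold in STAT5cKO BMDMs was 1.20 (adjusted p = 0.0107), which passed the threshold with the mouse as a block (adjusted p = 0.0058). The log2 difference between the genotypes was 0.10 with DMEM (95% interval -0.08 to 0.29), 0.00 with rmGM-CSF (-0.19 to 0.19) and 0.07 with 4T1 CM (-0.12 to 0.26). Per length, Csf2rb exceeded Csf2ra by a ratio of 1.23 and 1.10 in STAT5fl/fl and STAT5cKO libraries with DMEM, by 2.72 and 1.16 with rmGM-CSF and by 2.68 and 1.66 with 4T1 CM, so that the beta chain RNA drew ahead of the alpha chain RNA most in the STAT5fl/fl groups.

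Il3ra (ENSMUSG00000068758, chr14:14346275-14356011, + strand), which encodes the IL-3-binding chain, was expressed at low levels. It had 28.1 and 27.6 normalised CPM in STAT5fl/fl and 28.2, 24.9 and 22.1 in STAT5cKO libraries with DMEM. Values with rmGM-CSF were 28.6 and 24.6 in STAT5fl/fl and 24.8, 24.6 and 24.7 in STAT5cKO libraries, which overlapped the DMEM libraries. Values with 4T1 CM were 36.6 and 45.5 in STAT5fl/fl and 33.1, 36.6 and 38.0 in STAT5cKO libraries, all above the libraries of the other treatments. Il3ra rose 1.47-fold with 4T1 CM in STAT5fl/fl (adjusted p = 0.000742) and 1.43-fold in STAT5cKO BMDMs (adjusted p = 0.00023), calls that were lost without mouse 113 (adjusted p = 0.0715) and mouse 116 (adjusted p = 0.0112), respectively. Against rmGM-CSF the folds were 1.55 and 1.45 (adjusted p = 0.000397 and 0.000215), the first lost without mouse 113 (adjusted p = 0.118). No genotype difference was called, with log2 differences of -0.15, -0.10 and -0.19 with DMEM, rmGM-CSF and 4T1 CM and 95% intervals that reached from -0.41 to 0.13.

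Csf1r (ENSMUSG00000024621, chr18:61100598-61132149, + strand), the gene of the M-CSF receptor, was the steadiest of the 8 genes. Its level ranged from 3821 to 4199 normalised CPM over the 15 libraries, and neighbouring groups in the order of the means overlapped throughout. The 6 group means spanned 0.06 on the log2 scale, and TMM normalization changed their order. No comparison called it. The genotype differences were -0.03, -0.01 and -0.02 on the log2 scale with DMEM, rmGM-CSF and 4T1 CM, with 95% intervals within -0.16 and 0.13. Within the individual mice the fold over DMEM was at most 1.05 with rmGM-CSF and lay between 0.948 and 1.04 with 4T1 CM. Its exons share 873 bp with Hmgxb3 on the opposite strand, and fragments were counted by strand.

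Csf3r (ENSMUSG00000028859, chr4:126024550-126044440, + strand), the gene of the G-CSF receptor, was the member that fell with 4T1 CM. It had 264 and 233 normalised CPM in STAT5fl/fl and 214, 219.9 and 221 in STAT5cKO libraries with DMEM. After 4T1 CM it had 178 and 169 in STAT5fl/fl and 173, 176 and 178 in STAT5cKO libraries, below all libraries of the other treatments. It fell by 0.52 ± 0.07 on the log2 scale (SE) in STAT5fl/fl and by 0.31 ± 0.06 in STAT5cKO BMDMs (adjusted p = 2.06e-05 and 0.000367). After rmGM-CSF it had 272 and 245 in STAT5fl/fl and 182, 193 and 205 in STAT5cKO libraries, which did not overlap. It was 1.34-fold lower in STAT5cKO BMDMs with rmGM-CSF (log2 difference -0.42 ± 0.07, SE, adjusted p = 0.000283). The interaction with rmGM-CSF was -0.23 and was not called (adjusted p = 0.251), and with DMEM the log2 difference was -0.19 (adjusted p = 0.112). With 4T1 CM the log2 difference was 0.02 (95% interval -0.13 to 0.16). Of the 11 neutrophil and granulocyte precursor markers, Ly6g and Retnlg were at 0 counts in all libraries, and S100a8 and Mmp8 passed the filter. The summed level of the list ranged from 4.91 to 13.0 normalised CPM. S100a8 was called higher with 4T1 CM than with DMEM in STAT5cKO BMDMs. The part of this list in the values of Csf3r was not tested.

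Among the ligands, Csf1 (ENSMUSG00000014599, chr3:107741048-107760469, - strand), which encodes M-CSF, was the gene that was expressed. It had 8.41 and 8.26 normalised CPM in STAT5fl/fl and 11.2, 10.1 and 8.40 in STAT5cKO libraries with DMEM. With rmGM-CSF it had 40.1 and 38.4 in STAT5fl/fl and 43.8, 42.9 and 39.0 in STAT5cKO libraries. After 4T1 CM it had 25.1 and 18.6 in STAT5fl/fl and 27.7, 26.2 and 26.5 in STAT5cKO libraries. The treatments did not overlap, with rmGM-CSF highest, 4T1 CM between and DMEM lowest. With rmGM-CSF Csf1 rose 4.70-fold in STAT5fl/fl (log2 2.23 ± 0.14, SE, adjusted p = 5.93e-10) and 4.25-fold in STAT5cKO BMDMs (log2 2.09 ± 0.11, SE, adjusted p = 1.01e-10). With 4T1 CM it rose 2.62-fold and 2.72-fold (adjusted p = 2.34e-07 and 5.98e-09), and 4T1 CM was lower than rmGM-CSF by 1.79-fold and 1.56-fold (adjusted p = 3.48e-05 and 4.45e-05). The interactions were -0.15 (95% interval -0.51 to 0.22) for rmGM-CSF and 0.05 (-0.32 to 0.42) for 4T1 CM on the log2 scale. The genotype difference was not called with DMEM (log2 0.24, adjusted p = 0.311), rmGM-CSF (0.10, adjusted p = 0.612) or 4T1 CM (0.29, adjusted p = 0.101). Stromal cells are a known source of M-CSF, and the summed level of 7 stromal markers was 5.41 to 9.18 normalised CPM in STAT5fl/fl and 9.25 to 15.8 in STAT5cKO libraries. By treatment it was 8.47 to 9.18 with DMEM, 5.41 to 6.91 with rmGM-CSF and 5.74 to 7.43 with 4T1 CM in STAT5fl/fl libraries, and 14.6 to 15.8, 11.2 to 13.1 and 9.25 to 15.5 in STAT5cKO libraries. Of its 3 tested markers, Pdgfrb was called lower with either treatment in both genotypes, and none was called between the genotypes. Col1a1 is on this list, and the paper reported more Col1a1 RNA and type I collagen in stimulated STAT5cKO macrophages. The sum is therefore not a measure of stromal cells alone, and the part of this list in the values of Csf1 was not tested.

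Csf2 and Csf3, which encode GM-CSF and G-CSF, were not detectable beyond a few counts at this depth. Csf2 (ENSMUSG00000018916, chr11:54247271-54249667, - strand) had 2 counts in the STAT5fl/fl library of mouse 112 with DMEM, 1 count in that of mouse 113 with rmGM-CSF and 0 counts in the other 13 libraries. Csf3 (ENSMUSG00000038067, chr11:98701263-98703629, + strand) had 1 count in each of the STAT5cKO libraries of mouse 115 with rmGM-CSF and 4T1 CM and 0 counts in the other 13. All values lie at or under the floor of 3 counts, which covers counting error only, so no fold is given. Two-sided exact permutation tests gave p-values from 0.4 to 1 over 9 comparisons of each gene, and with 2 or 3 libraries per group the design cannot reach a p-value under 0.05. The RNA for GM-CSF was thus at the floor in libraries whose cells had been given GM-CSF protein.

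Jak2 (ENSMUSG00000024789, chr19:29251828-29313080, + strand), the kinase that the common beta chain carries, rose with both treatments. It had 55.1 and 55.9 normalised CPM in STAT5fl/fl and 51.5, 48.5 and 53.1 in STAT5cKO libraries with DMEM. After rmGM-CSF it had 145 and 153 in STAT5fl/fl and 115, 131 and 113 in STAT5cKO libraries. After 4T1 CM it had 273 and 256 in STAT5fl/fl and 205, 239 and 232 in STAT5cKO libraries. None of the 6 groups overlapped its neighbours in the order of the means, which ran from 4T1 CM over rmGM-CSF to DMEM with STAT5fl/fl first within each treatment. Jak2 rose 2.68-fold and 2.34-fold with rmGM-CSF in STAT5fl/fl and STAT5cKO BMDMs (adjusted p = 6.83e-10 and 4.65e-10). Under 4T1 CM the rise was 4.76-fold and 4.42-fold (adjusted p = 1.75e-12 and 1.27e-13), and 4T1 CM exceeded rmGM-CSF by 1.77-fold and 1.88-fold (adjusted p = 5.02e-07 and 8.58e-09). It was 1.24-fold lower in STAT5cKO BMDMs with rmGM-CSF (log2 difference -0.31 ± 0.08, SE, adjusted p = 0.00831), a call that was lost without mouse 112, 113, 114 or 116 (adjusted p = 0.0398, 0.132, 0.0261 and 0.0488). The log2 difference was -0.12 in the control medium (adjusted p = 0.425) and -0.23 with 4T1 CM (adjusted p = 0.051). The interactions of Jak2 were -0.20 (95% interval -0.43 to 0.04) and -0.11 (-0.34 to 0.12) on the log2 scale, respectively for the rmGM-CSF and the 4T1 CM response.

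The genes whose pattern over the 15 libraries was most like that of a member were sought for the 3 members whose group means spanned more than 1 on the log2 scale (Csf2rb 1.69, Csf1 2.31 and Jak2 2.37). Likeness was the root mean square difference of centred log2 CPM. Nearest to Csf2rb were Gm7451 (0.15), Heatr1 (0.15), a gene of ribosome biogenesis, and St6galnac4 (0.16), a sialyltransferase gene. Nearest to Csf1 were Cflar (0.14), which encodes the caspase-8 inhibitor c-FLIP, Phldb1 (0.20) and Rnf19b (0.21). Nearest to Jak2 were Stat3 (0.16), the gene of another STAT that JAK2 can phosphorylate, Srgn (0.18), the gene of the proteoglycan serglycin, and Ankrd28 (0.18).

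Genes around the receptors were read from 5 lists. Of the related ligands and receptors (Il3, Il5 and Il34 among them), 0 of 9 passed the low-count filter, and the IL-5 receptor alpha chain gene Il5ra, whose product also pairs with the common beta chain, is on this list. All 10 genes of the JAK kinases and STATs besides Jak2 were tested. With rmGM-CSF 4 were higher in STAT5fl/fl and 6 in STAT5cKO BMDMs, beside 16% and 13.4% of all genes. With 4T1 CM 7 were higher in either genotype, beside 19.1% and 19%. In these 4 comparisons 0 were lower, beside 12.7%, 10%, 18% and 18.2% of all genes. Stat3 rose 2.21-fold and 1.95-fold with rmGM-CSF, and 5.02-fold with 4T1 CM in STAT5fl/fl BMDMs. Stat4 rose 4.76-fold with 4T1 CM in STAT5cKO BMDMs, and it was 1.76-fold higher in STAT5cKO than in STAT5fl/fl BMDMs with 4T1 CM and 1.83-fold higher with rmGM-CSF. Stat3 was lower in STAT5cKO BMDMs with rmGM-CSF (log2 -0.26, adjusted p = 0.00487). Apart from the deleted Stat5a and Stat5b, the genotype comparison called 0 genes of the list with DMEM, and 0 had an interaction with either treatment.

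Apart from the deleted Stat5a and Stat5b, the largest genotype differences on these lists with rmGM-CSF and 4T1 CM were among the inhibitors of receptor signalling. Of 16 genes, all tested, 9 were higher and 3 lower with rmGM-CSF in STAT5fl/fl BMDMs, beside 16% and 12.7% of all genes. In STAT5cKO BMDMs 9 were higher and 1 lower, beside 13.4% and 10%. With 4T1 CM 9 were higher and 5 lower in either genotype. The shares of all genes were 19.1% and 18% in STAT5fl/fl and 19% and 18.2% in STAT5cKO BMDMs. Between the genotypes, 1 was higher and 5 lower in STAT5cKO BMDMs with rmGM-CSF, beside 3.78% and 6.16% of all genes. With 4T1 CM 2 were higher and 3 lower, beside 4.01% and 3.43%. With DMEM 0 were higher and 1 lower, beside 0.923% and 1.43%. Cish, a SOCS-family inhibitor and known STAT5 target, had 2 to 6 counts in the 5 DMEM libraries. With rmGM-CSF it had 2403 and 2730 counts in STAT5fl/fl and 31 to 59 in STAT5cKO libraries, and its log2 genotype difference was -5.99 (adjusted p = 6.16e-16). With 4T1 CM it had 679 and 749 counts and 42 to 45, respectively, a log2 difference of -4.13 (adjusted p = 1.43e-13). Socs3 had 10924 and 12176 counts with rmGM-CSF in STAT5fl/fl libraries and 2656 to 4060 in STAT5cKO libraries, in which it was the inhibitor with the largest response (log2 6.15 over DMEM). Socs2 rose 21.2-fold with 4T1 CM over rmGM-CSF in STAT5cKO BMDMs, from 10 to 19 counts to 285 to 382. Interactions were called for 4 of the 16 genes with rmGM-CSF and 2 with 4T1 CM, all below 0. Over all genes the shares below 0 were 2.28% and 0.546%, and those above 0 were 0.884% and 0.761%.

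Of the 24 adaptors and signalling enzymes, the genotype comparison called 1 lower with DMEM, beside 2.35% of all genes in either direction. With rmGM-CSF and with 4T1 CM it called 1 higher and 1 lower each, beside 9.93% and 7.44% of all genes. Pik3cb, a PI3-kinase catalytic subunit, was 1.35-fold higher in STAT5cKO BMDMs with rmGM-CSF and 1.37-fold higher with 4T1 CM. Pik3r1, a regulatory subunit of the same kinase, had log2 differences of -0.34 and -0.35. The response to rmGM-CSF called 7 higher and 5 lower in STAT5fl/fl and 9 and 3 in STAT5cKO BMDMs, beside 28.7% and 23.5% of all genes. The response to 4T1 CM called 10 and 8, and 11 and 5, beside 37.2% of all genes in either genotype. Fgr, a Src-family kinase, rose the most in each of these 4 comparisons, by 4.39-fold and 3.05-fold with rmGM-CSF and by 15.4-fold and 10.7-fold with 4T1 CM in STAT5fl/fl and STAT5cKO BMDMs. Gab3, an adaptor of the Gab family, fell the most in each of them, by 2.51 on the log2 scale with rmGM-CSF in STAT5fl/fl and by 1.23 in STAT5cKO BMDMs. Gab1 of the same family rose 5.32-fold and 7.25-fold with 4T1 CM over rmGM-CSF, and it was the 1 adaptor gene with an interaction with 4T1 CM (log2 0.65, adjusted p = 0.00778).

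Of the 10 transcription factors known to act on receptor genes or on macrophage differentiation, 9 were tested. With rmGM-CSF 3 were lower and 1 was higher in STAT5cKO than in STAT5fl/fl BMDMs, beside 6.16% and 3.78% of all genes. With 4T1 CM 2 were lower and Ets2 was higher, beside 3.43% and 4.01%. Egr2, an early growth response factor, had 4446 and 5367 counts in STAT5fl/fl and 1658 to 2336 in STAT5cKO libraries with rmGM-CSF, a log2 difference of -1.42 (adjusted p = 3.54e-09), and its log2 difference with 4T1 CM was -2.03 (adjusted p = 5.75e-10). With DMEM Ets2 was also higher in STAT5cKO BMDMs (log2 difference 0.50, adjusted p = 0.000996). It was the 1 gene of the list called there, beside 0.923% of all genes higher and 1.43% lower. Ets2 rose 9.21-fold and 6.24-fold with rmGM-CSF in STAT5fl/fl and STAT5cKO BMDMs, from 30.1 and 42.5 normalised CPM to 277 and 265. Its genotype difference with rmGM-CSF was not called (log2 -0.06, adjusted p = 0.594). These lists and the member genes share the libraries of each comparison, and no relation between them was tested.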

How the data were processed

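RNA of BMDMs from 5 mice was sequenced by the study in 15 stranded libraries. Whether each library came from a separate culture is not given in the sources used here. The authors deposited raw fragment counts per gene, made by trimming with Trimmomatic 0.33, alignment with HISAT2 2.1.0 to GRCm38 and strand-specific counting with featureCounts 1.6.2, in which both ends of a fragment had to map and qualities under 10 were dropped. The reference is that of another strain than BALB/c, which can lower the counts of genes that differ between the strains. The file also gives the exon length of each gene in bp, which was used for RPKM. The total counts per library were 16016736 to 22883108. The intervals given are from the model across genes, and the floor of 3 counts covers counting error only.

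The low-count filter required a CPM over 1 in 2 or more libraries. Library sizes were scaled by RLE factors, and the 6 groups were fitted together by the quasi-likelihood test of edgeR 4.0.16 in R 4.3.3, with calls at a Benjamini-Hochberg adjusted p-value under 0.01 over all 13005 genes kept. This follows the filter, scaling and threshold of the study's methods. A contrast was made for each of 11 comparisons. Levels are normalised CPM, or normalised RPKM where genes are compared with each other. Csf2 and Csf3 were compared by two-sided exact permutation tests of normalised CPM. The steps were first tested on simulated data. No 2 libraries were identical.

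The 3 libraries of a mouse come from the same animal, so that the mouse number pairs them. Deviations from the group means over all genes correlated between libraries of the same mouse. The mean r was 0.142 in STAT5fl/fl (6 pairs of libraries) and 0.157 in STAT5cKO mice (9 pairs). Between libraries of other mice it was -0.142 and -0.0784. Deviations cancel within each group, so these negative values largely follow from the positive ones and are no separate comparison. The pairs of 1 STAT5fl/fl mouse also repeat those of the other. The libraries of a mouse were treated as independent, and the mouse as a block was an alternative. Other alternatives were TMM scaling, no low-count filter, the filter of edgeR's filterByExpr, DESeq2 1.42.0, the likelihood ratio test, limma 3.58.1 with voom and the mouse as a random effect, a model of the libraries of 1 treatment, and leaving out each mouse in turn. Counting Csf2rb and Csf2rb2 as 1 gene was added after seeing the data.

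The member genes, the pathway lists and the marker lists were chosen with earlier results of these data known. Named were all members, of each pathway list the gene with the largest called change in each direction of each comparison, and the 3 genes nearest in pattern to each member whose group means spanned more than 1 on the log2 scale. Results of some genes on these lists are not reported here. Cell type markers were summed as normalised CPM. Promoters were taken from RefSeq and coding sequences from the annotation of GRCm38.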

Additional observations from a re-analysis of the deposited data

Results flagged for a closer look

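Responses of the beta chain genes differed between the genotypes by a test of the difference itself, an interaction in edgeR's quasi-likelihood fit over 2 STAT5fl/fl and 3 STAT5cKO mice. The response of Csf2rb to rmGM-CSF was smaller in STAT5cKO BMDMs by a log2 difference of -1.15 (adjusted p = 1.73e-06), and the folds over DMEM within a mouse were 2.69 and 2.72 in STAT5fl/fl and 1.18 to 1.25 in STAT5cKO mice. The response of Csf2rb2 to rmGM-CSF was smaller by -0.61 (adjusted p = 0.00101), with folds within a mouse of 1.69 and 1.696 against 1.09 to 1.12. The response of Csf2rb to 4T1 CM was smaller by -0.55 (adjusted p = 0.00632), with folds within a mouse of 3.07 and 3.08 against 1.97 to 2.24. Groups of 2 or 3 libraries are too small for a search for libraries that stand apart.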

How the results depend on the processing

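With 1 mouse left out, 423 of 440 values of single genes kept their side of the threshold and 17 fell short of it. Under the other settings 617 of 627 kept it, 2 fell short and 8 newly passed. None reversed. The values with 1 mouse left out include comparisons within a genotype from which a mouse of the other genotype was removed. Those comparisons lost no library of their own. Values that were not called with all mice are also included. The share that kept its side is therefore not a measure of how stable the calls are. The count of the 8 tested genes that differed between the genotypes with 4T1 CM was 2, and 1 in a model of the 4T1 CM libraries alone, which lost Csf2rb2, and it was 1 to 2 with 1 mouse left out. Leaving out 1 mouse gave 1 to 2 interactions with rmGM-CSF in place of 2 and 0 to 1 with 4T1 CM in place of 1, the low counts arising without mouse 112 or 113 for rmGM-CSF and without 112, 113, 114 or 115 for 4T1 CM. With the mouse as a block, 4T1 CM against rmGM-CSF called 6 genes in place of 5 in STAT5cKO BMDMs, the gain being Csf2ra (log2 0.27, adjusted p = 0.0058). The same call of Csf2ra was gained with TMM, without the filter, in DESeq2, in the likelihood ratio test and in limma with voom (adjusted p = 0.000662 to 0.00949). The pairing changed no other call of these genes, while over all genes the interactions with 4T1 CM rose from 170 to 295. The genotype comparisons cannot be blocked by mouse, since each mouse has 1 genotype.

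Over all genes, the genotype difference with DMEM had 306 calls, against 841 without the filter, 557 in DESeq2 and 608 in the likelihood ratio test. With 4T1 CM it had 968, against 1552 without the filter and 279 from the 4T1 CM libraries alone. The interaction with rmGM-CSF had 411, against 662 without the filter, and that with 4T1 CM had 170, against 477 without the filter, 363 in DESeq2 and 332 in the likelihood ratio test. Without 1 mouse the genotype calls were 43 to 246 with DMEM, 555 to 1008 with rmGM-CSF and 324 to 800 with 4T1 CM, and the interactions 132 to 283 and 26 to 102. The calls with rmGM-CSF against DMEM were 1763 to 3636 in place of 3730 in STAT5fl/fl and 1827 to 2836 in place of 3052 in STAT5cKO BMDMs, those with 4T1 CM against DMEM 2668 to 4687 in place of 4835 in STAT5fl/fl, and those with 4T1 CM against rmGM-CSF 1721 to 3874 in place of 4023 in STAT5fl/fl. The low end of each STAT5fl/fl, genotype and interaction range was without mouse 113, and that of the STAT5cKO range without mouse 115. The causes were not tested, other than that fewer mice entered. The order of the group means was the same under TMM for 7 of 8 genes, the exception being Csf1r. The small number of mice, above all of STAT5fl/fl mice, limits these comparisons, and the depth limits Csf2 and Csf3.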
